A study of Homo sapiens with 6 samples.

Results

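The keratins examined were KRT81, KRT86, KRT83, KRT8, KRT18, KRT10, KRT19, KRT72 and KRT73, 9 of the 55 keratin genes and of the 56638 genes in the count table. They were taken by symbol, and the list had been chosen by the counts and fold changes of these same knockout and control libraries. Their fold changes are therefore given as a description, without a test. The libraries came from HL60, an established cell line of acute myeloid leukaemia, grown in RPMI medium with 10% FCS. The knockout group was the line numbered 3, in which the gene SKI had been deleted with CRISPR/Cas9, and the control group was the line numbered 1, a CRISPR/Cas9 control. The SKI protein represses transcription together with SMAD factors. Each group had 3 mRNA libraries from 1 line, so a difference between the groups and a difference between the lines cannot be told apart. Nothing in the labels says whether the replicates were grown separately, so standard deviations and p-values reflect the spread of these libraries alone, and that spread may be technical. In bulk RNA, more cells expressing a gene and more of its RNA per cell cannot be told apart.

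Keratins are the intermediate filament proteins of epithelia. A filament is built from pairs, each made of 1 acidic type I keratin and 1 basic type II keratin, and a keratin without a partner is normally unstable. KRT8 (type II) and KRT18 (type I) form the filaments of simple epithelia, and KRT19 is a further type I keratin of such epithelia. KRT10 is a type I keratin of the upper epidermis, where it pairs with KRT1. KRT81, KRT83 and KRT86 are type II hair keratins of the hair cortex, and KRT72 and KRT73 are type II keratins of the inner root sheath of the hair follicle. Blood cells build their cytoplasmic filaments mainly from vimentin.

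KRT81, KRT86 and KRT83 lie close together on chromosome 12. KRT81 and KRT83 are on the minus strand and KRT86 on the plus strand. In GENCODE release 29 the KRT86 gene spans KRT81 on the opposite strand, but no exon base is shared between them. That annotation is on GRCh38, a later build than the hg19 of the counts, so no coordinates are given. The coding sequences of KRT81 and KRT86 were 89.6% identical over 1519 aligned columns, with 1 unbroken identical run of 605 bases. Of all 50-base windows of the KRT81 coding sequence, 49.2% occurred unchanged in that of KRT86 and 8.0% in that of KRT83. A read that does not reach beyond such a window cannot be assigned to 1 gene by its sequence. Of all 100-base windows of the KRT81 coding sequence, 38.0% occurred in that of KRT86 and 0.0% in that of KRT83. The differences between KRT81 and KRT86 lay mostly towards the end of the coding sequence. The stretch of 90 bases without gaps in which they differed most is shown because reads from it can be told apart. Capitals mark positions at which the 3 genes are not all alike, and the coding bases are 1237 to 1326 in KRT81 and KRT86 and 1252 to 1341 in KRT83.
KRT81: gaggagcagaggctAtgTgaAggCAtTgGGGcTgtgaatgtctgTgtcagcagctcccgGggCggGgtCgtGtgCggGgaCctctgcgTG
KRT86: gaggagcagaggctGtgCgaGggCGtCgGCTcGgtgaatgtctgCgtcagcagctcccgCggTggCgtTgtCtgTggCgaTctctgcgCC
KRT83: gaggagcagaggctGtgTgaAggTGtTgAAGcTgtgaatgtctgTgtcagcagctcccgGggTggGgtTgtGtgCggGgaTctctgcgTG
In this stretch KRT86 differed from KRT81 at 19 positions and KRT83 differed from KRT81 at 8. The stretch was picked for its differences between KRT81 and KRT86, and over the whole coding sequence KRT81 was 89.6% identical to KRT86 and 89.3% to KRT83.

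**Figure D1:**
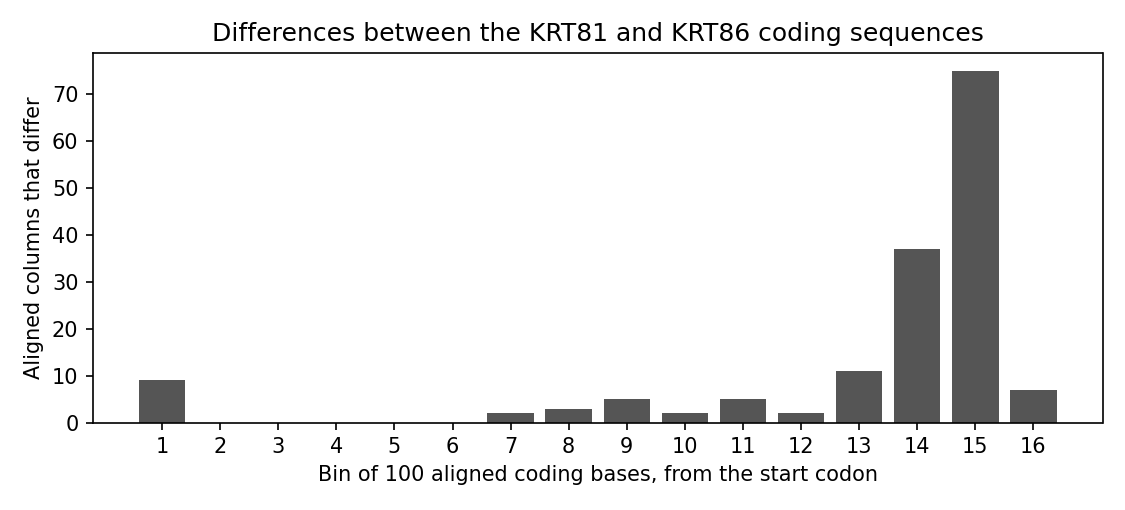
Aligned columns that differ between the KRT81 and KRT86 coding sequences of GENCODE 29 (substitutions and gaps), in bins of 100 columns from the start codon. Bins 2 to 6 hold no difference, and bins 14 and 15 hold 37 and 75.

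Library totals ran from 47930276 to 58553247 counts, and 3 counts, taken as the floor for a count of 0, corresponded to between 0.0509 and 0.0628 CPM. CPM is the usual count scaled to a common library size, here with library totals adjusted by the trimmed mean of M-values (TMM). SKI, the targeted gene, stood at 63.9, 83.5 and 88.5 CPM in control replicates 1 to 3 and at 59.6, 40.7 and 42.0 CPM in knockout replicates 1 to 3. All SKI values of the knockout lay below those of the control, with SKI reads in every library (log2 -0.73, SE 0.19, adjusted p = 0.0282 in edgeR's quasi-likelihood test). That call was lost without control replicate 2 (0.109), control replicate 3 (0.136) or knockout replicate 2 (0.0769) and with library totals in place of TMM (0.0673). Of 16 myeloid marker genes all had counts, 14 passed the filter on low counts, and 2 rose and 7 fell in the knockout in the same test, where 6.19% of all tested genes rose and 5.63% fell. The summed myeloid level was 13370 to 15650 CPM in control and 3509 to 9699 CPM in knockout libraries. Most of that sum was MPO, at 12640, 13990 and 11630 CPM in control and 3472, 8538 and 2562 CPM in knockout replicates 1 to 3. The part of the shift in myeloid markers in the keratin differences was not tested.

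KRT81 and KRT86, the type II hair keratins with the most reads, were close to absent from the control libraries and readily detected in every knockout library. KRT81 had 21, 2 and 19 counts in control replicates 1 to 3 and 894, 376 and 2342 counts in knockout replicates 1 to 3. On the CPM scale these were 0.439, 0.0339 and 0.335 in the control and 16.2, 7.78 and 44.6 in the knockout. The groups did not overlap, and knockout replicate 3 stood above the other two knockout libraries. The mean level of KRT81 went from 0.269 ± 0.210 CPM (SD, n = 3) to 22.9 ± 19.3 CPM (SD, n = 3). Its log2 fold change in the fit over all genes was 6.44 (SE 0.75), or 86.7-fold. Of the 16340 genes tested 0.0551% had a log2 fold change of 6 or more, and KRT81 ranked 5 and KRT86 ranked 6 from the top. Since the list was chosen by these fold changes, the ranks restate that choice.

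KRT86 followed the same pattern at a lower level. It had 5, 0 and 5 counts in the control libraries and 177, 106 and 555 counts in the knockout libraries, again with knockout replicate 3 highest and no overlap between groups. The means were 0.0642 ± 0.0562 and 5.32 ± 4.58 CPM (SD, n = 3), and the log2 fold change was 6.38 (SE 0.80). Leaving out knockout replicate 3 gave log2 values of 5.53 for KRT81 and 5.42 for KRT86, and leaving out control replicate 2 gave 5.76 for KRT86.

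**Figure D2:**
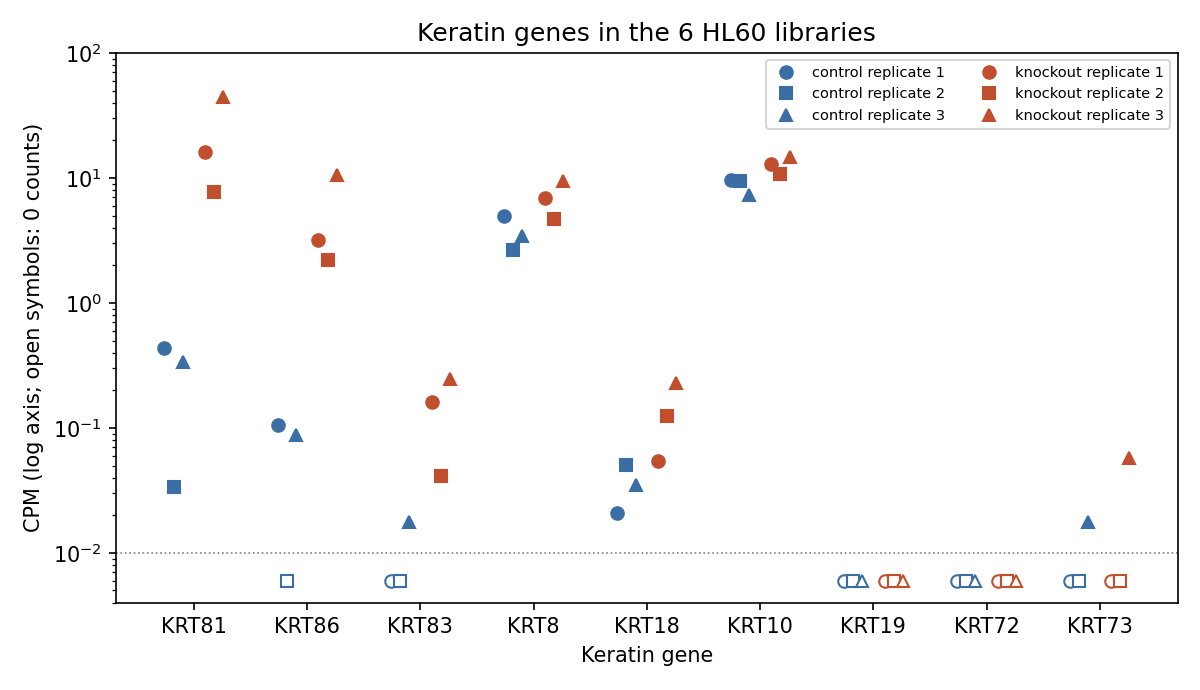
Level of each keratin gene in CPM on a log axis, in the 3 control (blue) and 3 knockout (orange) libraries, with open symbols for libraries with 0 counts. KRT81 and KRT86 separate widely by group, KRT8 and KRT10 lie within a narrow band, and KRT19 and KRT72 have no count.

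The split of counts between KRT81 and KRT86 was nearly the same in both groups. KRT81 held 80.8% of their summed counts in control replicate 1 (95% Wilson interval 62.1 to 91.5%, 26 counts) and 79.2% in control replicate 3 (59.5 to 90.8%, 24 counts). Control replicate 2 had only 2 counts, both of KRT81, with an interval of 34.2 to 100%. In the knockout libraries the share was 83.5% (81.1 to 85.6%), 78.0% (74.1 to 81.5%) and 80.8% (79.4 to 82.2%). Summed by group, it was 80.8% in the control (68.1 to 89.2%) and 81.2% in the knockout (80.0 to 82.3%). These intervals cover counting error only. Per base of gene length, KRT86 stood at 0.160, 0.227 and 0.191 times the level of KRT81 in knockout replicates 1 to 3. How much of the KRT86 count came from reads shared with KRT81 was not tested, and the sources used here do not say how shared reads were counted. KRT86 also shares 126 exon bases with a pseudogene on the same strand, AC021066.3, in GENCODE 29. With the counts of KRT81, KRT86 and KRT83 summed into 1 feature the log2 fold change was 6.41.

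**Figure D3:**
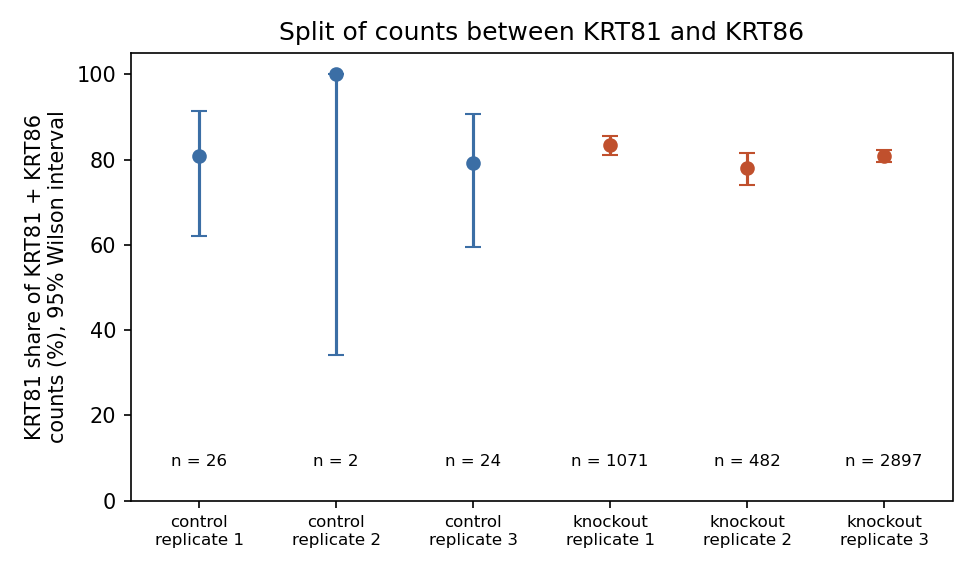
Share of KRT81 in the summed KRT81 and KRT86 counts of each library, in percent, with 95% Wilson intervals and the summed count (n) below each point. All 6 shares lie between 78.0 and 100%, and the control intervals are wide because few reads were counted.

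KRT83, the third hair keratin of this trio, had 0, 0 and 1 counts in the control and 9, 2 and 13 counts in the knockout. It was too low to pass the filter. The ratio of its summed counts, knockout over control, was 25.1, with an exact 95% counting interval of 4.10 to 1034, which leaves out the spread between libraries. In the knockout there were 1.01, 0.532 and 0.555 KRT83 counts for each 100 KRT81 counts. KRT83 was thus a trace beside KRT81 in the same libraries, and 8.0% of 50-base windows of the KRT81 coding sequence also occur in KRT83. Of 100-base windows 0.0% do.

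No type I hair keratin accompanied them. The 11 type I hair keratin genes of the table, among which KRT31 and KRT35 can partner type II hair keratins, had 0 counts in all 6 libraries. A count of 0 allows a level of up to 0.0628 CPM in the library with the highest floor. Type II hair keratins summed to between 0.0339 and 0.544 CPM in control libraries and between 10.1 and 55.5 CPM in knockout libraries.

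KRT8 had reads in every library of both groups. Control replicates 1 to 3 had 5.0, 2.67 and 3.42 CPM, and knockout replicates 1 to 3 had 6.89, 4.68 and 9.53 CPM. The groups overlapped, since knockout replicate 2 lay below control replicate 1. The means were 3.69 ± 1.19 and 7.03 ± 2.43 CPM (SD, n = 3), with a log2 fold change of 0.93 (SE 0.31). With 1 library left out that value lay between 0.67, without knockout replicate 3, and 1.21, without control replicate 1.

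KRT18, the type I partner of KRT8, was close to absent. It had 1, 3 and 2 counts in the control libraries and 3, 6 and 12 counts in the knockout libraries, below the filter. The ratio of its summed counts, knockout over control, was 3.67 (exact 95% counting interval 1.43 to 11.1). That interval leaves out the spread between libraries, and KRT18 was not past the threshold in the fit without a filter. Per base of gene length, the KRT8 level was 154, 33.6 and 62.4 times that of KRT18 in the control libraries and 81.7, 24.2 and 26.8 times in the knockout libraries. These ratios rest on few KRT18 reads, but KRT8 exceeded KRT18 in every library, by 24.2 times or more. In GENCODE 29 exons of KRT8 and KRT18 overlap on opposite strands over 525 bases, and the sources used here do not give the strand setting of the counting. KRT19, the other type I keratin of simple epithelia, had 0 counts in all 6 libraries.

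KRT10 was the most abundant of the 9 genes in the control, also per length. Control replicates 1 to 3 had 9.56, 9.52 and 7.24 CPM, and knockout replicates 1 to 3 had 12.9, 10.7 and 14.8 CPM. Every knockout value lay above every control value. The means were 8.77 ± 1.33 and 12.8 ± 2.04 CPM (SD, n = 3), and the log2 fold change was 0.55 (SE 0.20). KRT1, the type II partner of KRT10 in epidermis, had 0 counts in all libraries. KRT10 shares 56 exon bases with TMEM99 on the opposite strand.

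KRT72 had no count in any library. KRT73 had 1 count in control replicate 3 and 3 counts in knockout replicate 3, which is at the floor. At this depth KRT72 was therefore not detected in either line, and KRT73 was not above the floor in any library.

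Of the 9 genes, 7 had at least 1 count, 4 passed the filter, and 2 of those 4 were past an adjusted p of 0.05, both higher. Over all tested genes 11.8% were past it in either direction with 6.19% higher and 5.63% lower. The groups did not overlap for 3 of the 4, against 32.2% of all tested genes. The median log2 fold change of the 4 was 3.65, beside -0.01 over all tested genes. Since the list was made with these values known and the filter keeps genes that are high in only 1 group, nothing is read from these counts.

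The order of the members changed between the groups on the RPKM scale, which divides CPM by the gene length in kilobases and allows genes to be compared. In the control KRT10 led with 4.13 ± 0.626 RPKM (SD, n = 3). It was followed by KRT8 at 0.738 ± 0.238, KRT81 at 0.140 ± 0.109, KRT86 at 0.0268 ± 0.0235 and KRT18 at 0.0111 ± 0.00466 RPKM (SD, n = 3). In the control the KRT86 values overlapped those of both KRT81 and KRT18, whereas KRT10 and KRT8 each lay apart from the next. In the knockout KRT81 led with 11.9 ± 10.0 RPKM (SD, n = 3), ahead of KRT10 at 6.03 ± 0.959, KRT86 at 2.22 ± 1.91 and KRT8 at 1.41 ± 0.485 RPKM (SD, n = 3). KRT81 and KRT10 overlapped there, as KRT81 was at 4.03 RPKM and KRT10 at 5.05 RPKM in knockout replicate 2, and KRT86 and KRT8 overlapped too. KRT83 and KRT18 were last among the knockout levels with values, at 0.0803 and 0.0422 RPKM, apart from KRT73 at 0.00719 RPKM.

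Among the 4 tested keratins of the list, the knockout libraries were furthest apart in the hair keratins. The level in knockout replicate 3 was 5.74 times that in knockout replicate 2 for KRT81 and 4.82 times for KRT86, 2.04 times for KRT8 and 1.38 times for KRT10. Ratios at least that large were found for 0.318%, 0.557%, 6.63% and 22.4% of tested genes, whose median ratio was 1. KRT83 and KRT18 were also highest in knockout replicate 3. The same library was therefore the highest for each of these 6 keratins. Such spread was not limited to hair keratins. KRT80, tested but outside the list and not a hair keratin, was 6.22 times higher in knockout replicate 3 than in knockout replicate 2, on 27 and 4 counts.

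**Figure D4:**
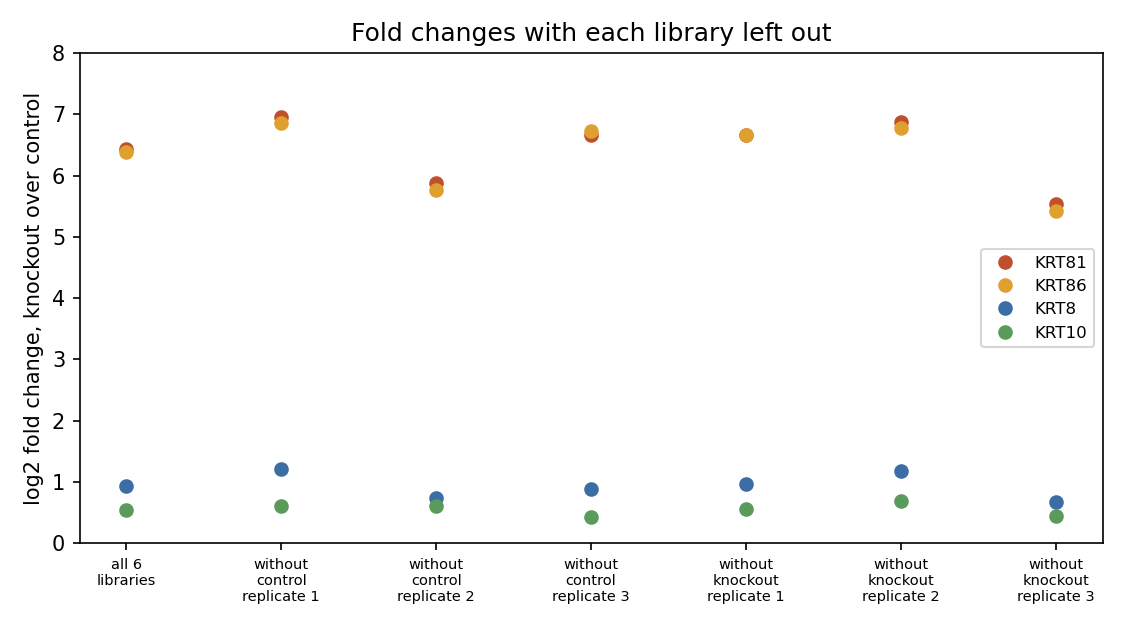
Log2 fold change, knockout over control, of the 4 tested keratins of the list with all 6 libraries and with each library left out. KRT81 and KRT86 range from 5.53 to 6.95 and from 5.42 to 6.87, and KRT8 and KRT10 stay between 0.42 and 1.21.

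Most other keratins were silent in both lines. Of the 55 keratin genes 38 had 0 counts in all libraries, including 23 of 29 type I and 15 of 26 type II genes. Outside the 9 listed genes only KRT80 and KRT222 passed the filter. KRT80, a type II keratin that neighbours the hair keratin cluster, went from 0.207 ± 0.171 to 0.356 ± 0.237 CPM (SD, n = 3, log2 0.83, edgeR adjusted p = 0.501). KRT222, a keratin-like gene on chromosome 17, had the highest level per length of these keratins, at 24.4 RPKM in the control and 30.5 RPKM in the knockout. On the CPM scale it was at 114 ± 3.72 and 142 ± 12.3 CPM (SD, n = 3, log2 0.32, SE 0.14, edgeR adjusted p = 0.17). In GENCODE 29 KRT222 shares 1092 of its 3169 exon bases with another gene on the same strand, AC073508.2. Reads from the shared bases cannot be assigned to 1 gene by position, and how many of the KRT222 counts these were was not tested.

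Keratin pseudogenes are copies of KRT8, KRT18 and others and can take up their reads. Of 140 pseudogenes 30 had a count and 5 passed the filter. KRT8P33 rose from 0.395 ± 0.127 to 1.04 ± 0.421 CPM (SD, n = 3, log2 1.38, edgeR adjusted p = 0.0442). That call was lost in 6 of 12 alternatives, with an adjusted p of 0.141, 0.0691 and 0.153 without control replicates 1, 2 and 3, 0.178 without knockout replicate 1, 0.0522 in limma-voom and 0.0587 with the replicate number as a block. KRT8P12, KRT8P46, KRT8P39 and KRT18P5 had log2 fold changes of -0.15, -0.64, 0.25 and 0.39 and did not pass. None of the 110 keratin-associated protein genes, which encode the matrix around hair keratins, passed the filter.

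**Figure D5:**
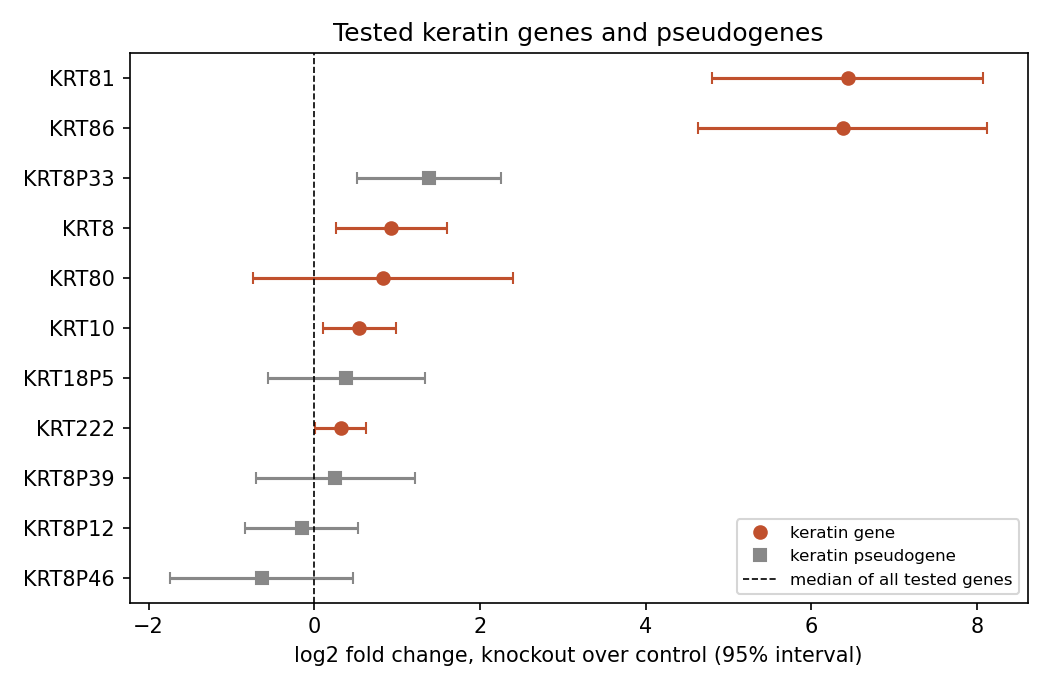
Log2 fold change, knockout over control, with its 95% interval for the 6 keratin genes (circles) and 5 keratin pseudogenes (squares) that passed the filter, and the median of all tested genes (dashed line). KRT81 and KRT86 stand at 6.44 and 6.38, and the others lie between -0.64 and 1.38.

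No tested neighbour of KRT81 or KRT8 passed the threshold apart from KRT86. Of the 10 annotated genes on each side of KRT81, 8 of the 20 were not matched by symbol in the count table and were not analysed here, and of the rest KRT80 and KRT86 passed the filter. Among those below it KRT7, a type II keratin of simple epithelia, had 10 counts in the control and 16 in the knockout. Beside KRT8, where 4 of 20 were not matched, the tested genes were EIF4B (log2 -0.27, edgeR adjusted p = 0.414), SPRYD3 (0.00, 0.992) and IGFBP6 (-0.62, 0.26).

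The authors' deposited table gives smaller fold change values for these genes, with log2 values of 1.58 (SE 0.39) for KRT81 and 2.15 (SE 0.41) for KRT86. Its scaled counts match the raw counts, whose ratio of mean CPM was log2 6.41 for KRT81 and 6.37 for KRT86. For KRT81 and KRT86 the deposited values are therefore not plain ratios of the counts and cannot be read as a smaller rise. How they were derived was not tested. In the authors' deposited table KRT8 is at 0.84 and KRT10 at 0.53. KRT81, KRT86 and KRT8 have an adjusted p under 0.05 in the authors' deposited table and KRT10 does not.

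Among the other intermediate filament genes, a neuronal and a lens filament gene rose and a lamin fell, while vimentin did not pass the test. Of 18 genes 9 were tested, of which 2 rose, 1 fell and 6 did not pass, beside 11.8% past the threshold among all tested genes (median log2 0.02, beside -0.01). The genes that rose had few control counts, 2, 1 and 5 for PRPH and 3, 1 and 2 for BFSP1. Both passed the filter through the knockout libraries alone, so nothing is read from the count of genes that rose. PRPH, which encodes the neuronal filament protein peripherin, rose from 0.0490 ± 0.0361 to 2.27 ± 1.14 CPM (SD, n = 3, log2 5.47, SE 0.59, edgeR adjusted p = 0.000378), with a log2 value of 6.21 without control replicate 3. BFSP1, encoding the lens protein filensin, rose from 0.0383 ± 0.0231 to 0.400 ± 0.169 CPM (SD, n = 3, log2 3.35, edgeR adjusted p = 0.00505). LMNB2, a B-type lamin of the nuclear envelope, fell from 258 ± 29.7 to 142 ± 5.69 CPM (SD, n = 3, log2 -0.86, edgeR adjusted p = 0.00431). VIM, encoding vimentin, stood at 472 ± 70.1 and 478 ± 66.9 CPM (SD, n = 3, log2 0.02, SE 0.18, edgeR adjusted p = 0.963). LMNB1 and LMNA, the other lamin genes, were at log2 0.07 and -0.31 and did not pass.

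Desmosomes anchor keratin filaments to the cell membrane, and some of their genes rose and others fell. Of 19 desmosome and plakin genes 9 were tested, of which 2 rose, 2 fell and 5 did not pass, against 6.19% of all tested genes higher and 5.63% lower (median log2 0.06, against -0.01). The genes that rose had few control counts, 12, 5 and 21 for PKP3 and 13, 6 and 11 for DSP. Both reached the filter only with the knockout libraries, so nothing is read from the count of genes that rose. DSG2, a desmosomal cadherin, fell from 18.0 ± 2.41 to 3.56 ± 0.642 CPM (SD, n = 3, log2 -2.34, edgeR adjusted p = 0.000109). PKP3, a plakophilin, rose from 0.235 ± 0.143 to 1.48 ± 0.505 CPM (SD, n = 3, log2 2.65, edgeR adjusted p = 0.00514). DSP, encoding desmoplakin, the direct link to keratin filaments, rose by 2.54 on the log2 scale to 1.10 ± 0.684 CPM (SD, n = 3, edgeR adjusted p = 0.00962, and 0.0581 without control replicate 3). Without knockout replicate 2 its log2 fold change was 1.93. PKP4 fell by 0.61 on the log2 scale (edgeR adjusted p = 0.0318). It lost the call with library totals (0.0748) and without control replicate 1 (0.0565), 2 (0.107) or 3 (0.143) or knockout replicate 1 (0.0657). JUP, encoding plakoglobin, was at log2 -0.54 with an edgeR adjusted p of 0.0583, and the plakin genes MACF1 and DST at 0.21 and 0.06.

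Of 11 genes for proteins that bind keratins 10 were tested, of which none rose, 1 fell and 9 did not pass, a share near the 11.8% of all tested genes (median log2 -0.26, beside -0.01). PNN, encoding pinin, a nuclear protein also found at desmosomes, fell by 0.69 on the log2 scale (edgeR adjusted p = 0.0288). Its adjusted p was 0.0811, 0.13 and 0.073 without control replicates 1, 2 and 3 and 0.0974 without knockout replicate 1. HSPA8, a chaperone, YWHAG and YWHAZ, both 14-3-3 proteins, were at log2 -0.30, -0.22 and 0.48 and did not pass.

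Markers of the tissues that normally make these keratins were mostly at or near 0. Of 18 epithelial markers 6 were tested, of which 1 rose and 5 did not pass, where 6.19% of all tested genes rose (median log2 0.48, beside -0.01). Their summed level was 3.79 to 6.20 CPM in control libraries and 4.70 to 6.67 CPM in knockout libraries, which overlap. KRT5, KRT14 and CLDN3 had 0 counts in all libraries, and EPCAM had 2 counts in knockout replicate 1 and none elsewhere. CLDN1, a tight junction claudin, rose to 0.298 ± 0.0766 CPM (SD, n = 3, edgeR adjusted p = 0.00255) from 1 count over the control libraries, all of it in replicate 1. Its log2 fold change of 5.15 became 7.03 without that replicate, so neither is a bound. CLDN1 passed the filter through the knockout libraries alone, so nothing is read from the count of epithelial genes that rose. OCLN, MUC1 and ESRP1, epithelial genes with reads in both groups, were at log2 -0.03, -0.56 and 1.88 and did not pass. Of 14 hair follicle markers, HOXC13, FOXN1, DLX3, MSX2, LGR5, KRT31, KRT35 and KRT75 had 0 counts in all libraries. LEF1, a Wnt effector also made in blood cells, and TCHH, encoding trichohyalin, were tested and neither passed (log2 -0.35 and -0.53). The summed hair follicle list was at 31.4 to 35.8 CPM in control and 23.1 to 31.9 CPM in knockout libraries, nearly all of it LEF1. Among the lymphoid markers 5 of 12 were tested and 1 rose, beside 6.19% of all tested genes, the B cell gene CD79A (log2 1.70, edgeR adjusted p = 0.0162, and 0.0657 and 0.0521 without control replicates 2 and 3). CD4, NKG7 and CD8A did not pass, at log2 0.11, -0.09 and 0.08. Of the 14 tested myeloid markers 2 rose and 7 fell, beside 6.19% and 5.63% of all tested genes. ANPEP and CSF3R rose, at log2 3.23 and 1.28. AZU1 and PRTN3, 2 of the 7 that fell, were at log2 -2.63 and -4.18 (-5.30 for PRTN3 without knockout replicate 2). MYB, SPI1 and FUT4 did not pass, at log2 -0.58, -0.42 and -0.84.

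The genes whose pattern over the 6 libraries was most like that of KRT81 were found by the root mean square distance of log2 CPM, each gene centred on its own mean. KRT86 was nearest, at a distance of 0.437. S100P, which binds calcium, followed at 0.899, CTA-384D8.35 at 0.993, PRPH at 1.05 and EMID1 at 1.06. The gap between KRT86 and the next gene was larger than that among the others. The distance includes the difference between the groups, by which KRT81 and KRT86 were both chosen, so nothing is read from their nearness or the gap. The part of reads shared between KRT81 and KRT86 in it was not tested. S100P stood at 1.54 CPM in the control and 104 CPM in the knockout on average, and like KRT81 it was highest in knockout replicate 3. For KRT8 the nearest were PPP1R16B at 0.0758, AC097724.3 at 0.0844, RHOC at 0.0966, DNAJB2, a co-chaperone, at 0.105 and CTSZ, a lysosomal protease, at 0.112. Of these 5, DNAJB2 and CTSZ passed the threshold (edgeR adjusted p = 0.0262 and 0.0404).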

How the data were processed

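Per the labels' protocols, the 6 HL60 libraries were made with an Illumina kit for stranded mRNA. Tools listed in the submitters' processing notes are TopHat2, featureCounts, Subread, bcl2fastq, DESeq2 and DESeq, with the build hg19 (GRCh37). The sources used here do not give versions, annotation, strand setting or treatment of shared reads. Every fit used the raw gene counts as deposited, in a table that also holds gene lengths. The authors' deposited second table holds scaled counts (a signal: count over size factor, with 0 set to 1, which matched the raw counts within 0.01 reads in all 21935 genes), log2 fold changes, a test score and p-values. No other column of sample values was present.

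Columns were matched to libraries by group and replicate number. Genes kept by filterByExpr were TMM-scaled and compared in the quasi-likelihood test of edgeR 4.0.16 (with R 4.3.3 and limma 3.58.1), group as the only term, Benjamini-Hochberg over all 16340 genes, threshold 0.05. Standard errors came from the F statistic, and log2 CPM used a prior count of 2. Members, lists and tests were chosen with earlier results of these data known. The rule named the 9 genes, every other tested keratin or pseudogene, SKI, up to 4 called genes of each list (smallest p) and 3 uncalled ones (highest mean CPM), the 5 nearest patterns and tested neighbours. Alternatives were DESeq2 size factors, library totals, 2 other filters, DESeq2 1.42.0, limma-voom, a replicate block, each library left out, summed hair keratins and no prior count. Coding sequences were taken from GENCODE 29 transcripts (GRCh38) and aligned globally with Biopython 1.88. The RefSeq promoter table held 3 of the 9 genes (KRT8, KRT10 and KRT73). The fitting code was tested on simulated data.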

Additional observations from a re-analysis of the deposited data

How the results depend on the processing

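KRT81, KRT86, KRT8 and KRT10 were higher in the knockout under every alternative run. Their log2 fold changes ranged from 5.53 to 6.95, 5.42 to 6.87, 0.67 to 1.21 and 0.42 to 0.68. These are descriptions, since the genes were chosen on these values. The count of listed keratins past the threshold was 2. It was 3 with the replicate number as a block and in DESeq2, and 2 to 3 with 1 library left out. Without a filter it was 4, with 4 also for all keratin genes, as KRT83 and KRT8 were added; more genes were tested there (30025). Leaving out 1 library gave 740 to 2488 genes past the threshold over the whole table, against 1932, and 2107 with the replicate block: control replicate 3 left out gave 740, control replicate 2 gave 932, and knockout replicate 1 gave 1025, in fits with fewer libraries. Pairing by replicate number was not evident. Deviations of same-numbered libraries correlated at -0.091, 0.299 and -0.0362, and control replicate 1 correlated best with knockout replicate 3 (0.34). With 3 libraries per group these correlations cannot settle whether the libraries were paired. With 42 and 10 control counts for KRT81 and KRT86, depth limits the control level and so the fold change.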

Other observations

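The following genes were chosen after their values were seen. KRT85, a type II hair keratin, had 0 counts in each control library and 3, 2 and 3 in knockout replicates 1 to 3. KRT121P, a keratin pseudogene, had 1, 0 and 0 counts in the control and 3, 2 and 14 in the knockout. None of these passed the filter. GATA3, a transcription factor of hair follicle, T cells and mast cells, had 0 counts in each control library and 17, 6 and 1 in knockout replicates 1 to 3, an order unlike that of KRT81.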
